A study of Mus musculus with 12 samples.

Results

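Claudins are the membrane proteins that form the strands of the tight junction, the seal that closes the space between neighbouring epithelial cells. Some members build small pores that let ions and water pass between cells, others make the seal tighter, and the mixture present in an epithelium sets how leaky it is. Small intestine is known as a leaky epithelium that absorbs nutrients with sodium, and colon as a tighter one that recovers salt and water. The 9 claudin genes described here are Cldn2, Cldn3, Cldn4, Cldn5, Cldn7, Cldn8, Cldn12, Cldn15 and Cldn23, each found by its Ensembl identifier among 53715 genes of the count table. The same table lists 33 claudin genes in all, of which 21 had at least 1 count in some library and 12 had none. All 9 genes passed the filter on low counts, as did 16558 genes in total.

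RNA of the mucosa of ileum and colon was sequenced from male C57BL/6J mice aged 8 weeks, with 3 control and 3 Slc39a8-IEC KO libraries per tissue (12 in all). Slc39a8 encodes a transporter of manganese and other metals. The KO mice carry Slc39a8-fl/fl together with Villin-Cre, which acts in intestinal epithelial cells and leaves Slc39a8 intact in the other cells of the mucosa. The sample labels give the control mice as Slc39a8-fl/fl without Cre, while the study's methods allow as controls floxed mice, mice without the floxed allele and mice with Villin-Cre only. Whole mucosa was used, so fewer cells of a type and less RNA per cell cannot be told apart in any value below. Levels are in CPM, counts per 1000000 of the library after scaling with edgeR's TMM factors. Differences are log2 fold changes ± SE from edgeR's quasi-likelihood test and were called where the p adjusted over the 16558 genes (Benjamini-Hochberg) was under 0.1.

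Libraries held 16749138 to 27903083 counts. The targeted gene was at 5.22 to 8.39 CPM in ileal control and at 2.62 to 4.35 CPM in ileal KO libraries, and at 20.1 to 20.8 CPM in colonic control and 7.35 to 11.5 CPM in colonic KO libraries. Tissue labels matched the markers: Fabp6, the ileal bile acid binding protein, was at 3362 to 7110 CPM in ileum and at 5.76 to 26.8 CPM in colon. Smooth muscle transcripts were scarce in ileal control replicate 3 and in ileal KO replicate 1, with summed levels of its 8 markers at 36.8 and 21.8 CPM against 1893 to 2740 CPM in the other ileal libraries. Ileal KO replicate 2 held transcripts typical of colonocytes, Car1 and Aqp8. Car1 (a carbonic anhydrase of colon) was at 2632 CPM there against 3.40 to 143.6 CPM in the other ileal libraries. Colonic libraries held at least 14884 CPM of Car1. The water channel Aqp8 was at 67.3 CPM where no other ileal library exceeded 0.358 CPM. The 4 colonocyte markers, which include Slc26a3 and Mptx1, summed to 2966 CPM there and to 151.5 to 351 CPM in the other ileal libraries. Car1 made up most of the 2966 CPM, and Slc26a3 and Mptx1 are not given singly here. Leukocyte markers were also low in the libraries with few muscle transcripts, with summed levels of 168.7 and 156.1 CPM against 498 to 887 CPM in the other ileal libraries, and glial and mesothelial markers lay below the others too.

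The 9 genes lie on 5 chromosomes of GRCm38 (GENCODE M21). Cldn3 (chr5:134986214-134987472, plus strand) and Cldn4 (chr5:134945119-134946934, minus strand) are neighbours 39280 bases apart, and Cldn15 (chr5:136966616-136975858) and Cldn12 (chr5:5489537-5514958) share their chromosome. Cldn2 is at chrX:139800828-139811386, Cldn7 at chr11:69964779-69967885, Cldn5 at chr16:18776847-18778262, Cldn8 at chr16:88560828-88563183 and Cldn23 at chr8:35824712-35826559. None of the 75-base windows of their transcripts is found in a transcript of another gene. The antisense gene Wbscr25 overlaps Cldn3, and the use of strand in counting was not given in the sources used here. Wbscr25 held at most 21 counts in any library, beside at least 4058 for Cldn3.

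RefSeq promoter windows (GRCm38.p6, 250 bases before to 50 after a start site) were found for 7 of the 9 genes, with 10 windows in all. For each of 6 genes a window is printed, 250 bases before the start and 5′ to 3′ on the strand of the gene. These are the 4 genes that were lower in colon, Cldn5, which was higher there, and Cldn3, the neighbour of Cldn4 that was not called. Cldn7 has a further window (chr11:69965171-69965470), which is not printed. Capitals mark ACCNGTT, a motif of grainyhead-like factors of epithelia, which reads AACNGGT where it lies on the other strand. The window of Cldn15 lies inside the span of its gene in GENCODE M21, before the start of a shorter transcript.
Cldn2 (chrX:139800558-139800807, plus strand): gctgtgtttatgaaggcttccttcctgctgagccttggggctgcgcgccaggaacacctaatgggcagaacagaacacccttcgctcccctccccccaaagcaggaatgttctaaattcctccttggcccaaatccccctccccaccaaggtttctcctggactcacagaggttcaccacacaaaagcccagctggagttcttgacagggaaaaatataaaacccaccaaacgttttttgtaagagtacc
Cldn15 (chr5:136967619-136967868, plus strand): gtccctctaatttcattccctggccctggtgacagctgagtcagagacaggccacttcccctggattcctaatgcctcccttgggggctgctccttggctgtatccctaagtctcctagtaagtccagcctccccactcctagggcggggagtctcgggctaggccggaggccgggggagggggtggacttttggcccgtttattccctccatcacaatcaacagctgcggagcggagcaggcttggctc
Cldn4 (chr5:134946935-134947184, minus strand): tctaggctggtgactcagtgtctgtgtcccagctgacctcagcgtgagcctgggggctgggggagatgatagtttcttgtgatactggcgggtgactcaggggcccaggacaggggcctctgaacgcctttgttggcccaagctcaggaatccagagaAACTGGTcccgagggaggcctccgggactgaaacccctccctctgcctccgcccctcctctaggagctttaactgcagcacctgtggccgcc
Cldn7 (chr11:69964529-69964778, plus strand): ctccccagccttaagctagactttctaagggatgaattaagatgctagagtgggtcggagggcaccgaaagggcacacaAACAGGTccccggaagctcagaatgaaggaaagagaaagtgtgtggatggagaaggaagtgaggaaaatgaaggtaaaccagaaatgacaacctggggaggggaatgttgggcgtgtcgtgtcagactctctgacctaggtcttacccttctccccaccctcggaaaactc
Cldn3 (chr5:134985964-134986213, plus strand): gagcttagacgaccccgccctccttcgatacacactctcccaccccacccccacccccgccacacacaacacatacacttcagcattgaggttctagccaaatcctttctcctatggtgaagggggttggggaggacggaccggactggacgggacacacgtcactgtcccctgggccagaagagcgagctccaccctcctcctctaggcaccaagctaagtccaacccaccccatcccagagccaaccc
Cldn5 (chr16:18776597-18776846, plus strand): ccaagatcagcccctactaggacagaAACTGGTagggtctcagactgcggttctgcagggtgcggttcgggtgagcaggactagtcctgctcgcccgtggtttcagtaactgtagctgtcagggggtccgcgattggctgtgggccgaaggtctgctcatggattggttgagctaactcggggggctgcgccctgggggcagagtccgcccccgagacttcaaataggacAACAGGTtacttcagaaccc
ACCNGTT was present in 3 of the 10 claudin windows, against 8.13% of 32851 promoter windows of the same length. It lies at -92 in Cldn4 and at -171 in the printed window of Cldn7 relative to the start site, both genes lower in colon. In Cldn5, which was higher in colon, it lies at -224 and -20. The further window of Cldn7 does not hold it. The windows of Cldn2 and Cldn15 do not hold it. TTTATNG, a motif of the intestinal CDX factors, was in none of the 10 claudin windows and in 10.9% of all, and GTTAAT, a core of the site of HNF1, was in none and in 7.1% of all. All were searched on both strands of the 300 bases.

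Levels of different claudins can be compared only per length, here as CPM per kb of all merged exons. In ileal control mucosa Cldn7, which is found along the whole lateral membrane as well as at the junction, was the most abundant at 497 ± 112 CPM per kb (SD, n = 3). Cldn3, a sealing claudin, followed at 241 ± 41.3 CPM per kb (SD, n = 3). Cldn4 (120.1), Cldn15 (90.6) and Cldn2 (69.1 CPM per kb) came next, and the ranges of these neighbours in the order overlapped. Cldn23 (26.7), Cldn12 (9.72), Cldn8 (2.16) and Cldn5 (0.522 CPM per kb) followed with no overlap between neighbours.

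The order in colon was different at its top. In colonic control mucosa Cldn3 was at 240.0 to 292 CPM per kb and Cldn7 at 218 to 271 CPM per kb, so the ranges overlapped, while in ileum every library had more Cldn7 than Cldn3, with a Cldn7 to Cldn3 ratio of 1.37 to 2.86. In the 6 colonic libraries that ratio was 0.800 to 0.934. The ratio depends on the lengths used: per length of the longest transcript, Cldn7 led in colon too, with 45.3% of the summed level of the 9 genes in control libraries against 35.4% for Cldn3. The summed level of the 9 genes was 997 to 1102 CPM per kb in ileal control and 578 to 715 CPM per kb in colonic control libraries.

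**Figure D1:**
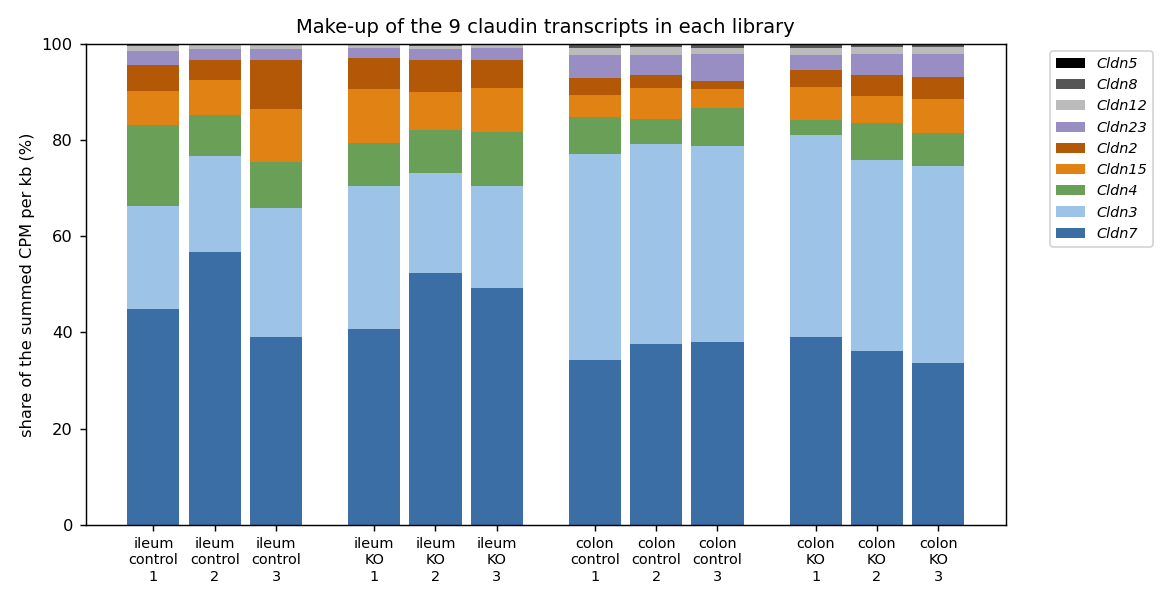
Share of each claudin in the summed CPM per kb of the 9 genes (y axis, percent) in the 12 libraries (x axis, tissue, genotype and replicate number). Cldn3 takes 40.9 to 42.8% in colonic control and 19.9 to 26.9% in ileal control libraries, and Cldn2 with Cldn15 takes a smaller part in colon than in ileum.

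Expressed as a share of the 9, Cldn3 made up 22.8% in ileal control and 41.7% in colonic control libraries, and Cldn7 46.9% and 36.6%. The pore-forming pair of Cldn2 and Cldn15 together took 11.4 to 21.3% of the sum in ileum of control mice and 5.61 to 9.13% in their colon, with no overlap. In KO mice the pair took 14.5 to 17.6% in ileum and 9.97 to 11.8% in colon, again with no overlap. The highest ileal share, 21.3%, was that of control replicate 3, which held few muscle transcripts. Cldn4 also took a smaller share in colon, at 8.49 to 16.7% in ileal and 5.28 to 7.82% in colonic control libraries, with no overlap.

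The main comparison asks how claudin transcripts change from ileum to colon in control mice. Of the 9 genes, 4 were called lower in colon (Cldn2, Cldn15, Cldn4 and Cldn7), 1 was called higher (Cldn5) and 4 were not called (Cldn3, Cldn8, Cldn12 and Cldn23). Among all 16558 genes, 35.9% were called, 19.6% as lower and 16.2% as higher in colon. The libraries of the tissues did not overlap for the 5 claudins called, nor for 40.7% of all genes. The median log2 fold change was -0.01 over the 9 claudins and 0.02 over all genes.

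**Figure D2:**
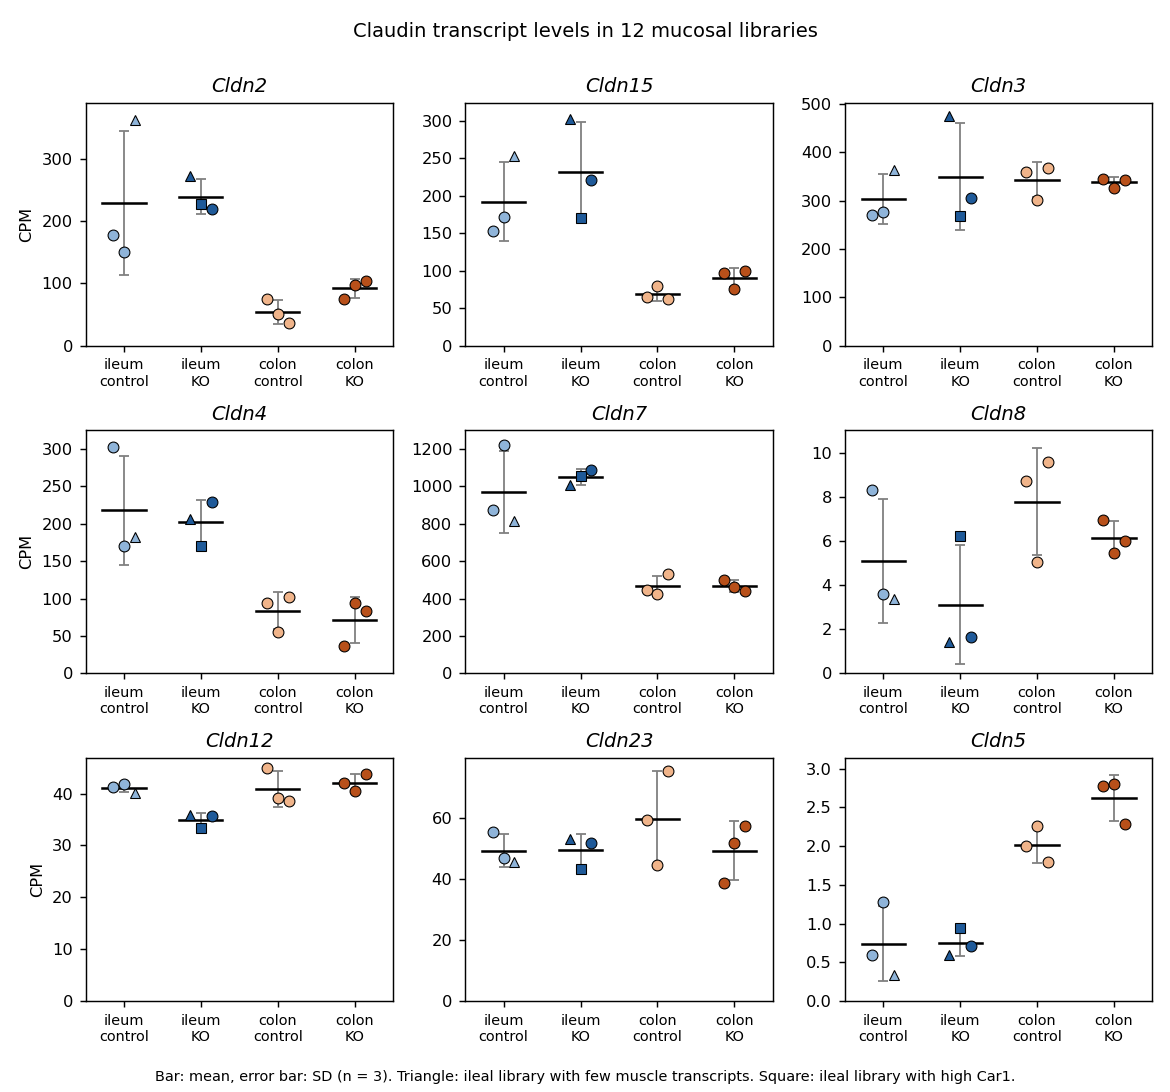
CPM (y axis, starting at 0) of the 9 claudins in the 4 groups (x axis), with a point per library, the mean as a bar and the SD as error bar (n = 3). Cldn2, Cldn15, Cldn4 and Cldn7 lie higher in all ileal than in all colonic libraries, Cldn5 lies lower, and triangles and squares mark the 3 ileal libraries that stand apart.

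Both pore-forming claudins fell. Cldn2, which forms pores for cations and water and is typical of leaky epithelia, was at 177, 149.8 and 362 CPM in ileal control replicates 1, 2 and 3 and at 75.3, 51.3 and 36.4 CPM in colonic control replicates 1, 2 and 3. The groups did not overlap, and the highest ileal value came from the library with few muscle transcripts. The log2 fold change was -2.08 ± 0.34 (adjusted p = 0.00087), which is 0.236 times the ileal level. Without the ileal libraries with few muscle transcripts it was -1.60 ± 0.25 (adjusted p = 0.0004).

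Cldn15, a cation pore that lets sodium return to the lumen of the small intestine, was at 153, 171 and 253 CPM in ileal and at 65.4, 79.4 and 61.9 CPM in colonic control libraries. Every ileal library lay above every colonic one. Its log2 fold change was -1.48 ± 0.24 (adjusted p = 0.00079), or 0.358 times the ileal level.

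Among the claudins with sealing or other epithelial roles, Cldn4 and Cldn7 fell. Cldn4, which tightens the junction against cations in many epithelia, was at 302, 169.9 and 183 CPM in ileal and at 94.3, 55.4 and 101.6 CPM in colonic control libraries, with no overlap. Its log2 fold change was -1.38 ± 0.35 (adjusted p = 0.013). Cldn7 was at 872, 1219 and 815 CPM in ileal and at 446, 424 and 528 CPM in colonic control libraries, again with no overlap. Its log2 fold change of -1.05 ± 0.17 (adjusted p = 0.00077) put colon at 0.481 times the ileal level.

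Cldn3 went with none of these. It was at 270.1, 276 and 363 CPM in ileal and at 360.3, 302 and 368 CPM in colonic control libraries, which overlapped, and its log2 fold change was 0.18 ± 0.21 (adjusted p = 0.54). Beside its neighbour Cldn4, the difference shows in the per-length ratio of Cldn4 to Cldn3, which was 0.349 to 0.775 in ileal control and 0.127 to 0.191 in colonic control libraries. Without the ileal libraries with few muscle transcripts it was not called (log2 fold change 0.32 ± 0.14, adjusted p = 0.10). Leaving out ileal KO replicate 2 as well, a choice made after seeing the data, moved it across the threshold (0.35 ± 0.14, adjusted p = 0.087).

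Cldn12, an unusual claudin that lacks the tail motif by which most claudins bind scaffold proteins, was the most even of the 9. It was at 41.3, 41.8 and 40.1 CPM in ileal and at 44.9, 39.1 and 38.6 CPM in colonic control libraries, with a log2 fold change of -0.01 ± 0.10 (adjusted p = 0.96). Cldn23, known from the differentiated cells of the surface epithelium, ranged from 45.6 to 55.4 CPM in ileal and from 44.6 to 75.5 CPM in colonic control libraries, with a log2 fold change of 0.28 ± 0.20 (adjusted p = 0.32).

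Cldn8, a sealing claudin of distal colon and of the distal nephron, was low in all libraries. It was at 8.32, 3.61 and 3.36 CPM in ileal and at 8.70, 5.04 and 9.60 CPM in colonic control libraries, so the groups overlapped, and its log2 fold change of 0.62 ± 0.53 was not called (adjusted p = 0.42).

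Cldn5, the main claudin of blood vessels, was the only member called higher in colon, at very few counts. It was at 0.599, 1.28 and 0.340 CPM in ileal and at 1.79 to 2.25 CPM in colonic control libraries, that is 8 to 23 and 38 to 47 counts. The log2 fold change was 1.45 ± 0.43 (adjusted p = 0.026), or 2.74 times the ileal level, and 2.12 ± 0.39 without ileal control replicate 2, the highest of the ileal libraries. Of 10 endothelial markers tested, Tek and Lyve1 were called higher and Tie1 lower in colon, and their summed level overlapped between the tissues, at 20.0 to 34.9 CPM in ileal and 21.9 to 43.4 CPM in colonic control libraries. None of the 10 was at 0 in any library. Their part in the result for Cldn5 was not tested. By immunofluorescence the study placed Cldn5 protein apically in the epithelium of colon, and which cells held this RNA was not measured.

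**Figure D3:**
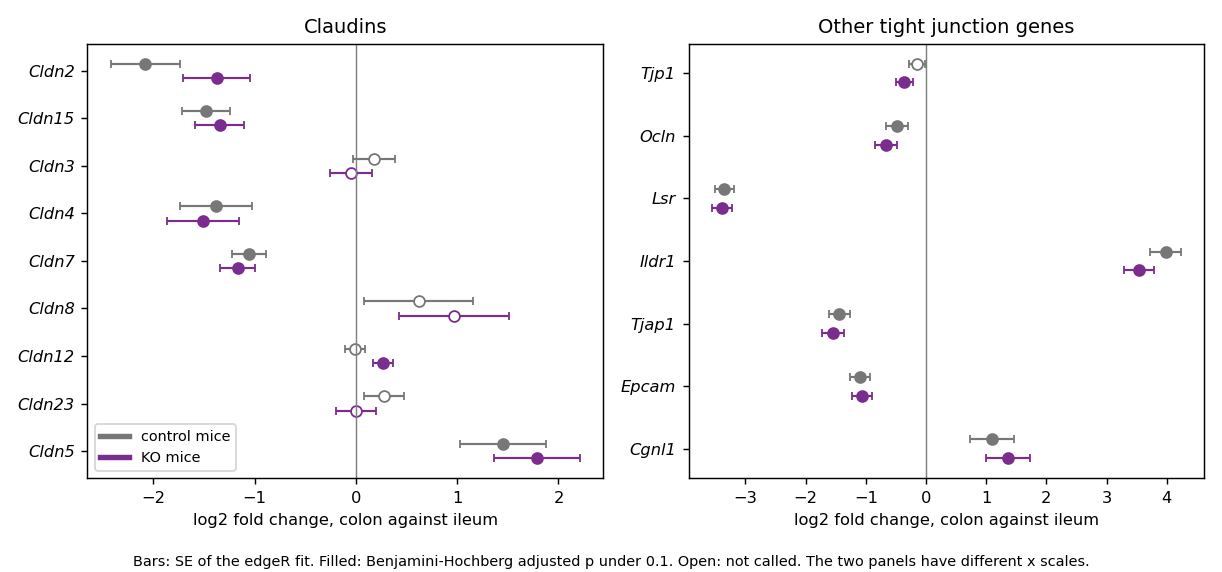
Log2 fold change of colon against ileum (x axis, with SE) in control and KO mice for the 9 claudins (left) and for 7 other tight junction genes (right). Filled points were called at an adjusted p under 0.1. Cldn2, Cldn15, Cldn4 and Cldn7 lie left of 0 in both genotypes, and Lsr and Ildr1 lie far from 0 on opposite sides.

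The epithelial markers moved between the tissues as well. Of 10 markers, 7 were called lower and 1 (Cdx1) higher in colon of control mice, and their summed level was 18144 to 19987 CPM in ileal and 8868 to 9938 CPM in colonic control libraries. When libraries were scaled to this sum in place of TMM factors, the median log2 fold change of all genes moved from 0.02 to 1.01, and the claudins moved with it. Of the 16558 genes, 11741 were then called higher in colon and 875 lower. On that scale Cldn2 remained lower in colon (-1.09 ± 0.36, adjusted p = 0.017), while Cldn15 (-0.48, adjusted p = 0.10), Cldn4 (-0.41, adjusted p = 0.30) and Cldn7 (-0.05, adjusted p = 0.76) were not called, and Cldn3 (1.17), Cldn8 (1.58), Cldn12 (0.99) and Cldn23 (1.26) were called higher. The order of the 9 log2 fold changes was the same on both scales. Vil1, Krt20 and Ezr, which are among these markers, belong to the brush border and to mature enterocytes, and the shares of epithelial cells were not measured.

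The same comparison in KO mice addresses whether the pattern along the intestine holds when Slc39a8 is deleted in the epithelium. The 4 claudins lower in colon of control mice were also called lower in KO mice: Cldn2 (-1.38 ± 0.33, adjusted p = 0.0097), Cldn15 (-1.35 ± 0.24, adjusted p = 0.0014), Cldn4 (-1.51 ± 0.35, adjusted p = 0.0082) and Cldn7 (-1.17 ± 0.17, adjusted p = 0.00038). Cldn5 was again higher (1.79 ± 0.42, adjusted p = 0.0086). Of the 10 endothelial markers, Pecam1 (1.02 ± 0.37, adjusted p = 0.059) and Tek (1.10 ± 0.41, adjusted p = 0.064) were called higher in colon of KO mice and none lower. Their summed level was 22.8 to 27.3 CPM in ileal KO and 31.4 to 46.3 CPM in colonic KO libraries, with no overlap, and its part in the rise of Cldn5 was not tested. Cldn12 was called higher in colon of KO mice (0.27 ± 0.10, adjusted p = 0.066). In KO mice 37.1% of all genes were called, 20.0% as lower and 17.1% as higher in colon. The tissues did not overlap for these 6 claudins, nor for 50.4% of all genes. When libraries were scaled to the epithelial markers, none of the 4 falls was called in KO mice.

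The call of Cldn12 and the value of Cldn8 in KO mice moved with single libraries. Cldn12 was at 35.8, 33.4 and 35.7 CPM in ileal and at 42.0, 40.6 and 43.8 CPM in colonic KO libraries, which did not overlap, but the call was lost when any of ileal KO replicates 2 and 3 or colonic KO replicates 1, 2 and 3 was left out (adjusted p up to 0.19), with the replicate number as a block (adjusted p = 0.10) and with no filter on low counts (adjusted p = 0.17). The size of the Cldn12 difference stayed at 0.24 to 0.30 when these libraries were omitted one by one. Cldn8 was at 1.43, 6.21 and 1.66 CPM in ileal KO replicates 1, 2 and 3 and at 5.44 to 6.97 CPM in colonic KO libraries. The high ileal KO value is that of the library with colonocyte transcripts, whose part in it was not tested. Ileal control replicate 1 held more Cldn8, at 8.32 CPM. The log2 fold change of Cldn8 in KO mice was 0.97 ± 0.54 (adjusted p = 0.20) with all libraries. Without ileal KO replicate 2 it was 1.99 ± 0.46 (adjusted p = 0.011).

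The difference of the colon-to-ileum change between KO and control mice was tested directly. It was called for none of the 9 claudins and for none of the 16558 genes (0.0%) in edgeR, with 1.02% of genes at an unadjusted p under 0.05 and 1 gene called by DESeq2. For Cldn2 it was 0.70 ± 0.46 (unadjusted p = 0.16) with all libraries, 0.34 ± 0.35 without the ileal libraries with few muscle transcripts and 0.22 ± 0.35 without ileal control replicate 3 alone. The lowest unadjusted p was that of Cldn12 (0.28 ± 0.14, unadjusted p = 0.076). A p above the threshold does not show that the tissue patterns of the genotypes are alike.

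Genotype was compared within each tissue and over both. None of the 9 claudins was called in ileum, in colon or over both tissues, and edgeR called 0.0% of all genes in each of these comparisons. The targeted gene Slc39a8 was thus not called either, with a log2 fold change of -1.13 ± 0.17 over both tissues (unadjusted p = 2.3e-05, adjusted p = 0.38). Its values were -1.05 ± 0.26 in ileum and -1.20 ± 0.25 in colon. The study, with DESeq2 and both tissues combined, reported Slc39a8 as lower in KO mice at the same threshold. The lack of a call therefore does not show that a gene is unchanged. Unadjusted p-values under 0.05 were found for 1.52% of genes in ileum, 2.33% in colon and 3.87% over both tissues. DESeq2 called 2, 1 and 4 genes in these comparisons and limma-voom 1, 0 and 1, and no claudin was among them.

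**Figure D4:**
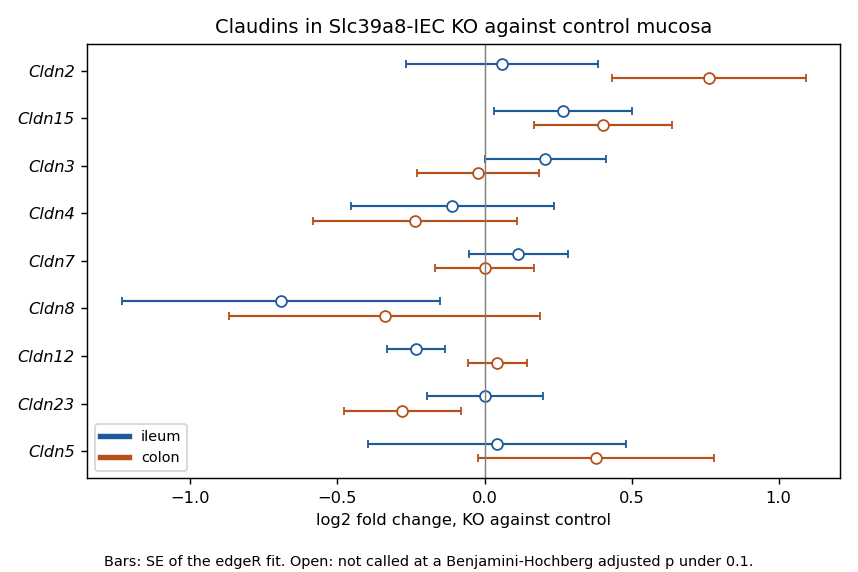
Log2 fold change of KO against control (x axis, with SE) for the 9 claudins in ileum and colon. All points are open, as none was called, and Cldn2 in colon and Cldn12 in ileum lie farthest from 0 relative to their SE.

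Cldn2 had the lowest unadjusted p of the 9 in colon. It was at 75.3, 51.3 and 36.4 CPM in control and at 74.7, 97.9 and 104.2 CPM in KO replicates 1, 2 and 3, with overlap only between control replicate 1 and KO replicate 1. The log2 fold change was 0.76 ± 0.33 (unadjusted p = 0.040, adjusted p = 1.0), with values of 0.56 to 1.07 over the alternatives. In ileum the corresponding value was 0.06 ± 0.33, at 219 to 272 CPM in KO libraries inside the control range of 149.8 to 362 CPM. The top of that range is ileal control replicate 3, which held few muscle transcripts. Without it the log2 fold change was 0.55 ± 0.27, and without both libraries with few muscle transcripts it was 0.44 ± 0.27, neither of them called. Cldn15 was at 76.3 to 100.1 CPM in colonic KO against 61.9 to 79.4 CPM in control libraries (0.40 ± 0.23), and over both tissues its log2 fold change was 0.33 ± 0.16 (unadjusted p = 0.057).

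Cldn12 had the lowest unadjusted p of the 9 in ileum. All 3 KO libraries (33.4 to 35.8 CPM) lay below all 3 control libraries (40.1 to 41.8 CPM), a separation in this direction that 1.57% of all genes also showed. The log2 fold change was -0.23 ± 0.10 (unadjusted p = 0.040, adjusted p = 1.0). In colon the groups overlapped, with a log2 fold change of 0.04 ± 0.10.

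Cldn5 in colon also separated by genotype, with KO libraries at 2.28 to 2.80 CPM above control libraries at 1.79 to 2.25 CPM, as did 6.98% of all genes in that direction. Its log2 fold change there was 0.38 ± 0.40 (unadjusted p = 0.37). The remaining log2 fold changes lay between -0.69 ± 0.54 (Cldn8 in ileum) and 0.27 ± 0.23 (Cldn15 in ileum), and for Cldn7, the most precise of the abundant members, they were 0.11 ± 0.17 in ileum and 0.00 ± 0.17 in colon. Single libraries moved the ileal values. Cldn8 was at -1.71 without ileal KO replicate 2, the library with colonocyte transcripts, and at -0.15 without ileal control replicate 1. Cldn15 ranged from 0.00 without ileal KO replicate 1 to 0.52 without ileal control replicate 3, both libraries with few muscle transcripts, and Cldn7 from 0.00 without ileal control replicate 3 to 0.31 without ileal control replicate 2. None of these was called.

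The 6 ileal libraries differed in claudins along a line that does not follow genotype. In ileal control replicate 3 and KO replicate 1, which held few muscle transcripts, Cldn2 (362 and 272 CPM), Cldn15 (253 and 303 CPM) and Cldn3 (363 and 476 CPM) lay above all 4 other ileal libraries, at 149.8 to 228, 153 to 222 and 268 to 306 CPM. The ratio of the means was 1.64 for Cldn2, 1.55 for Cldn15 and 1.5 for Cldn3. Among all genes, 23.2% lay above the other 4 ileal libraries in both, and 11.8% did so with a ratio over 1.5.

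**Figure D5:**
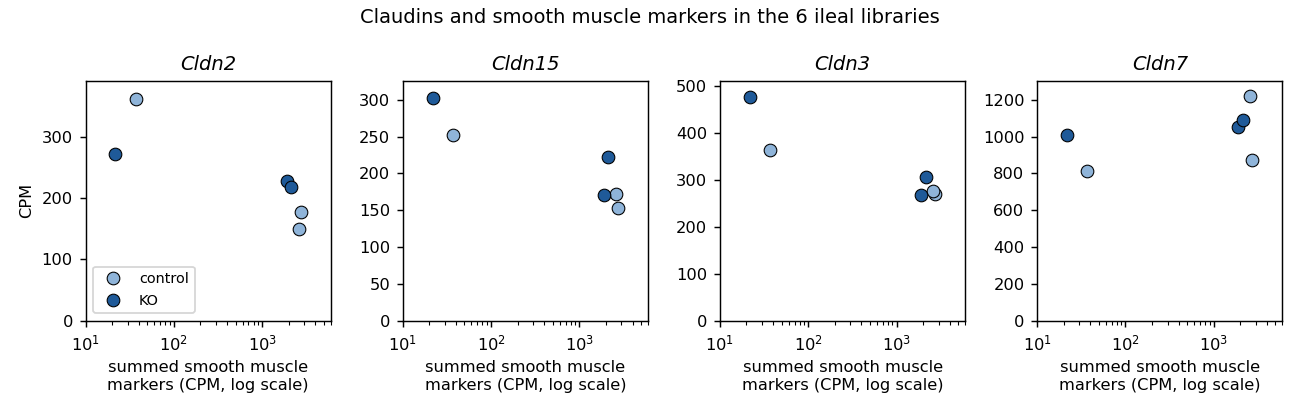
CPM of Cldn2, Cldn15, Cldn3 and Cldn7 (y axes, starting at 0) against the summed CPM of 8 smooth muscle markers (x axis, log scale) in the 6 ileal libraries. The libraries at 21.8 and 36.8 CPM of muscle markers lie highest for Cldn2, Cldn15 and Cldn3 but not for Cldn7.

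The other claudins did not share this shift. Cldn4 (183 and 207 CPM against 169.9 to 302 CPM) and Cldn7 (815 and 1007 CPM against 872 to 1219 CPM) overlapped with the other ileal libraries, as did Cldn8, Cldn12 and Cldn23. Cldn5 lay just below them (0.340 and 0.596 against 0.599 to 1.28 CPM), as did 27.2% of all genes, but at only 8 and 10 counts against 9 to 24. Summed endothelial markers overlapped, at 34.9 and 27.3 CPM against 20.0 to 31.8 CPM. In the same libraries the Paneth cell gene Lyz1 was at 6360 and 4742 CPM against 1839 to 2459 CPM. Krt20, a keratin of mature enterocytes, was at 0.760 times the mean of the others, while Krt19, Vil1 and Cdh1 overlapped with them. Summed markers of ileal enterocytes went the other way from Krt20, at 13861 and 16189 CPM against 11948 to 12966 CPM. Summed epithelial markers were at 18312 and 19212 CPM, inside the range of the other 4 (18144 to 22639 CPM). The part of muscle, leukocyte, glial, mesothelial, endothelial, Paneth cell and epithelial content in these claudin values was not tested.

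Outside the 9, 3 claudins passed the filter on low counts. Cldn34c1 was called higher in colon in control mice (1.26 ± 0.48, adjusted p = 0.071) and in KO mice (1.23 ± 0.48, adjusted p = 0.076) at only 4 to 30 counts a library, and its counts may be shared with the near-identical Cldn34c genes beside it. Cldn1, a sealing claudin best known from skin, had 1 to 71 counts and a log2 fold change of -0.76 ± 0.97 (adjusted p = 0.59). Cldn10, which forms ion pores in kidney and gland, had 9 to 31 counts in 10 libraries and none in both ileal libraries with few muscle transcripts, where a count of 0 allows up to 3 counts (log2 fold change 0.01 ± 1.07, adjusted p = 0.99). Of the remaining claudin genes with a count, Cldn14 reached 16 counts in a library, Cldn11 reached 7 and the others at most 5.

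Tight junction genes that are not claudins included scaffolds, occludin-type proteins and the proteins of the corners where 3 cells meet. Of 30 such genes tested, 10 were called lower and 2 higher in colon of control mice, and 13 and 2 in KO mice. Over all genes, 19.6% were called lower and 16.2% higher in control mice, and 20.0% and 17.1% in KO mice. Median log2 fold changes of the 30 were -0.27 and -0.34 (0.02 and 0.01 for all genes). Scaled to the epithelial markers, 2 were called lower and 22 higher in control mice (median 0.72), and 2 and 23 in KO mice (median 0.80). Of all 16558 genes, that scaling called 11741 higher in control and 12662 higher in KO mice, with medians of 1.01 and 1.15. With TMM factors, the 2 called higher in control mice were Ildr1 (3.98 ± 0.26, adjusted p = 8.8e-07) and Cgnl1, a cingulin relative (1.10 ± 0.37, adjusted p = 0.043). The 3 with the largest falls were Lsr (-3.35 ± 0.16, adjusted p = 1.8e-07), Tjap1 (-1.44 ± 0.18, adjusted p = 0.00010) and Epcam, which binds and stabilises Cldn7 (-1.10 ± 0.16, adjusted p = 0.00045).

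Lsr and Ildr1 are relatives that recruit tricellulin to the corners between cells, and they went opposite ways. Lsr was at 165 to 228 CPM in ileal and at 17.8 to 21.7 CPM in colonic control libraries, while Ildr1 was at 12.3 to 19.0 CPM in ileal and at 237 to 283 CPM in colonic control libraries. Neither gene's groups overlapped. The log2 fold changes in KO mice were -3.39 ± 0.16 for Lsr and 3.53 ± 0.25 for Ildr1, and both were larger in size than that of any claudin. Tjp1, which encodes the scaffold protein ZO-1, was not called in control mice (-0.14 ± 0.14, adjusted p = 0.46). Ocln, which encodes occludin, was lower in colon (-0.49 ± 0.19, adjusted p = 0.073). Scaled to the epithelial markers, Tjp1 (0.84) and Ocln (0.49) were called higher in colon and Epcam (-0.11) was not called, while Lsr (-2.35), Tjap1 (-0.46), Ildr1 (4.98) and Cgnl1 (2.09) kept their direction and their calls. None of the 30 genes was called between genotypes by edgeR.

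Likeness of pattern was measured as the root mean square difference of log2 CPM, each gene centred on its own mean, over the 12 libraries. Within the 9, the smallest differences were 0.25 between Cldn3 and Cldn12, 0.25 between Cldn12 and Cldn23 and 0.28 between Cldn3 and Cldn23. Next came 0.39 between the pore-forming Cldn2 and Cldn15 and 0.40 between Cldn7 and Cldn15. The largest was 1.79 between Cldn2 and Cldn5. Among all other genes, the nearest to Cldn7 were Epb41l4b (0.10) and Sgpl1, a sphingosine phosphate lyase (0.10). The nearest to Cldn15 were Aco1, an iron-regulated aconitase (0.14), and Cyp4f40 (0.15). Those nearest to Cldn2 were Fignl1 (0.32) and Gm45716 (0.34), and to Cldn4 Spats2l (0.26) and Ifrd1 (0.26).

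For the claudins that changed little, nearness says little beyond an even level, since their own spread around the mean was 0.23 for Cldn3, 0.12 for Cldn12 and 0.24 for Cldn23. Their nearest genes were Mcur1 and Cbfa2t2 for Cldn3, Nxf1 and Slc39a1 for Cldn12, and Klf4 and Parp4 for Cldn23, at differences of 0.09 to 0.14. Cldn5 was nearest to Gstm1 (0.27) and 6430548M08Rik (0.27), and Cldn8 to Gm11724 (0.33) and Flrt1 (0.36), which held at most 1.64 and 1.06 CPM.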

How the data were processed

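Ileal and colonic mucosa were measured by RNA-seq of oligo-dT primed cDNA in 12 libraries, grouped by the genotype and tissue in the labels, with replicate numbers from their titles. The authors aligned reads with STAR (build mm10, per the labels) and deposited expected counts, estimates of reads per gene that are not normalized. Not given in the sources used here was which tool made them. The study's reporting summary names uniquely mapped reads, removal of duplicates and FeatureCounts, which gives whole numbers, but 93.7% of the deposited values were whole. Of 53715 genes, 53620 had a symbol in GENCODE M21, matched on the Ensembl identifier without its version. The 92 spike-in lines held no counts and were left out.

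Expected counts were rounded. edgeR 4.0.16 in R 4.3.3 (filterByExpr, TMM, glmQLFit and glmQLFTest) was fitted to the 4 groups over 16558 genes, with tissue as an additive term for genotype over both tissues, and p-values were adjusted by the Benjamini-Hochberg method with the study's threshold of 0.1. Log2 CPM used a prior count of 2. Alternatives were DESeq2 1.42.0, limma-voom (limma 3.58.1), other scalings, filters, thresholds and lengths, a replicate block and libraries left out. Leaving out ileal KO replicate 2 together with the 2 ileal libraries with few muscle transcripts was chosen after seeing the data. The steps were tested on simulated data. Each library came from 1 mouse, and the labels do not say whether both tissues came from the same mice. The fits take the libraries as independent.

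Named genes are the 9 claudins, other claudins that passed the filter, Tjp1, Ocln and, of 30 tight junction genes, up to 3 called with the largest change in each direction in control mice, Slc39a8, the 2 genes nearest in pattern to each claudin, and markers of cell types. A further gene that this rule names is not reported here. The members and lists were chosen with earlier results of these data known. Libraries of 16749138 counts or more left Cldn5, Cldn8 and the other low claudins with the least precision. Promoter sequences are from RefSeq (GRCm38.p6). Python 3.11.15 with matplotlib 3.10.9 drew the figures.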

Additional observations from a re-analysis of the deposited data

How the results depend on the processing

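Over the 6 comparisons, Cldn2, Cldn15, Cldn4, Cldn7 and Cldn5 kept their direction between the tissues under every alternative, and their calls under every alternative except scaling to epithelial markers, where Cldn15, Cldn4 and Cldn7 were lost in control mice and Cldn2 (-0.24), Cldn15 (-0.22), Cldn4 (-0.34) and Cldn7 (-0.03) in KO mice. That scaling moved the median of all genes from 0.02 to 1.01 in control and from 0.01 to 1.15 in KO mice, called 12616 genes (11741 higher in colon) and 13398 genes (12662 higher), and turned Cldn12 in control (0.99) and Cldn23 (1.14) and Cldn3 (1.08) in KO mice to higher in colon. It also called Cldn8 higher in KO mice (2.07, adjusted p = 0.0059). With library size only the medians were 0.24 and 0.29. Then 4156 genes were higher and 2102 lower in control mice (2689 and 3251 with TMM factors) and 4637 and 1908 in KO mice (2837 and 3312). Cldn12 in control (0.21) and Cldn23 in KO mice (0.27) turned positive with library size only. That setting also called Cldn23 in control (0.51, adjusted p = 0.087) and Cldn8 in KO mice (1.26, adjusted p = 0.086) higher in colon. With upper-quartile factors the medians were 0.12 and 0.14, with 3373 higher and 2741 lower in control and 3678 and 2634 in KO mice. Values within 1 SE of 0 in both fits were taken as having no direction. Without the 2 ileal libraries with few muscle transcripts, Cldn3 in KO mice changed to 0.25, as it did without ileal KO replicate 1 alone (0.25), and leaving out each library in turn gave Cldn3 values of -0.21 to 0.25 there and of -0.10 (without ileal KO replicate 1) to 0.37 between genotypes in ileum. All genes called between genotypes, 0 in the fit reported, numbered 4 over both tissues, 2 in ileum and 1 in colon by DESeq2, which also called 1 in the difference between tissues, 1 over both tissues and 1 in ileum by limma-voom, 1 in colon with libraries of the comparison alone, 3 over both tissues and 3 in ileum without the libraries with few muscle transcripts, and 6 over both tissues without ileal KO replicate 2 as well. Leaving out each library in turn gave 0 to 1 over both tissues and 0 to 1 in ileum, and 4639 to 6418 genes between tissues in control and 4415 to 7107 in KO mice. Same-numbered libraries of different groups deviated from their group means with correlations of -0.69 to 0.40. Of 12 libraries, 4 correlated best with their own number. That check pools all groups, while only ileum and colon of the same genotype could share mice. There, same-numbered libraries were at -0.08 to 0.165 in control and 0.051 to 0.251 in KO mice. Libraries of different numbers were at -0.183 to 0.161 and -0.207 to 0.054. This does not decide whether mice were shared, and the numbers were not taken as pairs. With a replicate block 5333 genes were called in control and 5558 in KO mice, 5 claudins in each, and of the claudin calls only that of Cldn12 in KO mice (0.27, adjusted p = 0.10) was lost. The low counts of Cldn5 and Cldn8 limit their precision.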
